A study of Mus musculus with 4 samples.

Results

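The genes described here are Trp53, which encodes p53, its inhibitors Mdm2 and Mdm4, and its transcriptional targets Ccng1, Trp53inp1, Bax and Zmat3. They were taken by gene symbol and not by a rule on their values, though earlier results of these data were known. All 7 were found among the 10790 genes of the deposited table. RNA of whole mouse lenses, taken at postnatal day 4, was measured by sequencing. The groups were Tdrd7 -/- mice, called Tdrd7 null below, and wild type control mice, with 2 libraries each and 15 pooled lenses per library. The labels give no strain, sex or design of the mutant allele. TDRD7 is a Tudor-domain protein of RNA granules, and its loss causes cataract in mice and humans.

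p53 is a transcription factor that is made continuously and destroyed quickly. MDM2 marks it for degradation, MDM4 blocks its activation domain, and Mdm2 is itself a p53 target, which closes a feedback loop. Stress signals that free p53 from them raise the transcripts of genes for cell cycle arrest, repair and death, so the levels of target mRNAs are often read as a sign of p53 activity. p53 itself is controlled mostly as a protein, which mRNA does not measure. In the lens, p53 and its targets are known from studies of epithelial proliferation and of the fiber cells, which lose their nuclei and organelles as they mature.

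The promoter sequences are shown first, because the members are grouped here by what they are to p53. p53 binds a pair of decamers with a C at the fourth and a G at the seventh base of each. The RefSeq promoter table (GRCm38.p6) covered 5 of the 7 genes, all but Trp53inp1 and Zmat3, and was searched for the pair with a spacer of 0 to 13 nt. The consensus reads the same on both strands. Ccng1 held the closest match, with 1 mismatch in 20 bases and no spacer, 195 to 176 nt upstream of the annotated start. Its 250 bases upstream of the start, at chr11:40755287-40755536 on the minus strand, are printed 5′ to 3′ with both decamers in capitals.
Ccng1: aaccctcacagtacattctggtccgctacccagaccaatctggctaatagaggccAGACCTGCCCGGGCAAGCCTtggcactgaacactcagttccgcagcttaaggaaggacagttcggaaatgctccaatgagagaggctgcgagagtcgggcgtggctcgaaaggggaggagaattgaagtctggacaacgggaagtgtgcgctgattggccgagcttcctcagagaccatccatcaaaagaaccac

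The best matches of the other promoters are printed alone for comparison, again with the decamers in capitals and any spacer in lower case. Bax had 2 mismatches at chr7:45467079-45467099 (minus strand), Trp53 had 3 at chr11:69580284-69580303 (plus strand), Mdm4 had 3 at chr1:133025626-133025650 (minus strand) and Mdm2 had 4 at chr10:117710788-117710809 (minus strand). Another annotated Mdm4 promoter had 9 mismatches at best.
Bax: AGGCAAGCTTtGAACTTGCGG
Trp53: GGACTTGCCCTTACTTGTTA
Mdm4: AAGCAAGGTAtgctgTGGCAAGCCT
Mdm2: GGGCGTGCGCgcGCGCACGCCC
Of 32851 mouse promoters of the same length, 0.627% held a pair with at most 1 mismatch, 4.09% at most 2 and 15.6% at most 3. The matches of Trp53 and Mdm4 were thus of a kind found in many promoters. Among 51 genes of the wider target lists used below that had a promoter in the table, 2 held a pair with at most 1 mismatch, namely Cdkn1a and Gtse1, the latter named after its match was seen. Genes were scored by their best promoter, whereas the background counts each promoter singly. A match describes letters in this window only, and elements in introns, such as that of Mdm2, lie outside it.

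The deposited values are scaled reads, that is, reads per gene divided by 1 factor per library and not corrected for gene length. Read numbers were inferred from the smallest step between values, taken as 1 read. On that reading the genes of the table held 33920522 to 42767535 reads per library, without the low genes left out before deposit. Tdrd7 itself gave 1188 and 972 scaled reads in control libraries 1 and 2, and 165 and 96.6 in the libraries labelled Tdrd7 null (adjusted p = 1.17e-06, limma). Genotypes were compared with limma on log2(scaled reads + 1) over 10696 genes, with Benjamini-Hochberg adjustment and a threshold of 0.05, and fold changes are on that scale. With 2 libraries per genotype an exact permutation test of 1 gene cannot give a two-sided p below 0.333. The limma p-values rest on the spread between these pools, taken largely over genes of similar level (prior df 11.05, residual df 2). In whole lenses, fewer cells of a type and less RNA per cell cannot be told apart.

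Ccng1 and Trp53inp1 rose in Tdrd7 null lenses, by 1.16-fold and 1.37-fold in scaled reads, and the other 5 genes did not pass the test. Trp53, Mdm2, Mdm4, Bax and Zmat3 had fold changes of -0.16 to 0.13 on the log2 scale. The 2 calls among 7 genes stand beside a background of 18.0% of all tested genes called, with 10.1% called higher and 7.88% called lower. For 6 of the 7 genes the groups did not overlap, 4 with higher and 2 with lower values in Tdrd7 null lenses. That was so for 61.5% of all tested genes, 30.2% with higher and 31.3% with lower values, so the separation says little by itself. The plot of scaled reads by library shows the values on which these counts rest.

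**Figure D1:**
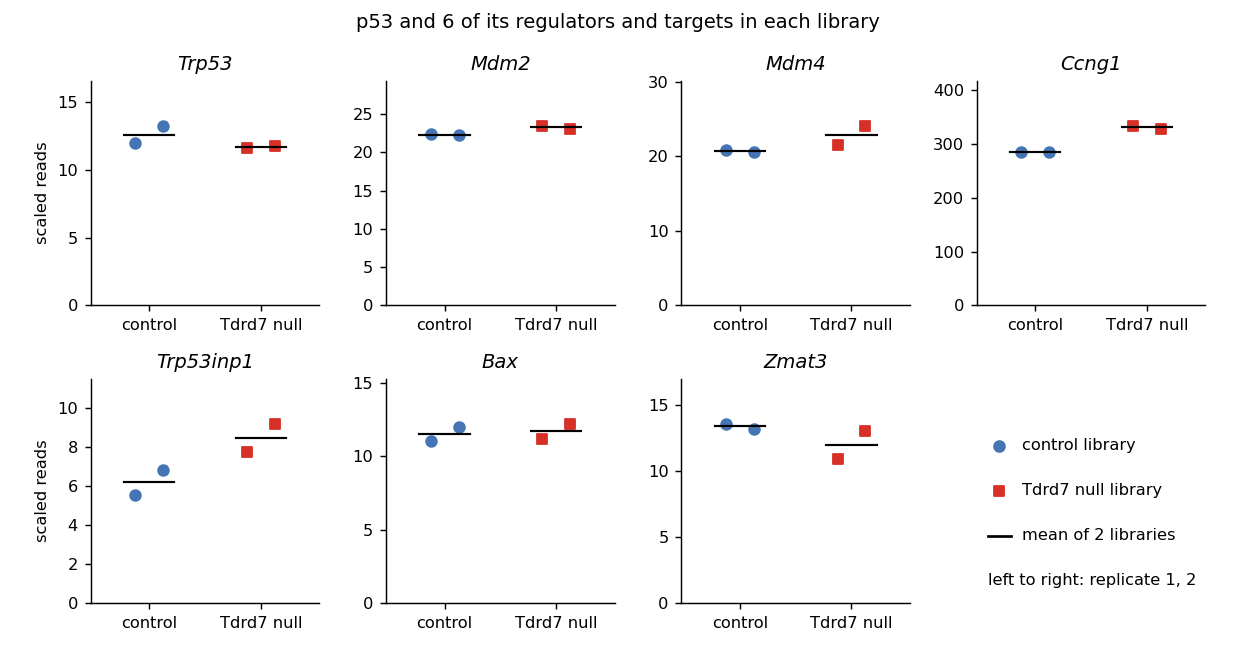
Scaled reads of the 7 genes in each library (y axis, from 0) by genotype (x axis), with the mean of 2 libraries as a bar. Ccng1 and Trp53inp1 lie higher in both Tdrd7 null libraries, by 1.16-fold and 1.37-fold of the means, and the values of Bax overlap.

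Trp53 (ENSMUSG00000059552, chr11:69580359-69591873, plus strand) was present at 11.96 and 13.25 scaled reads in control libraries 1 and 2 and at 11.63 and 11.77 in Tdrd7 null libraries 1 and 2. Both Tdrd7 null values lay just below the lower control value, and the control libraries differed more from each other than that gap. The log2 fold change was -0.10 ± 0.079 (SE, n = 2 per group), with a 95% interval of -0.27 to 0.07 and an adjusted p of 0.418 in limma. These values rest on 418 to 560 inferred reads per library. The interval leaves room for a decrease of the size seen, with opposite sign, for Ccng1.

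Mdm2 (chr10:117688888-117710758, minus strand), the ubiquitin ligase that targets p53 for degradation, stood at 22.36 and 22.26 scaled reads in the controls, against 23.46 and 23.09 in Tdrd7 null libraries. The groups did not overlap, but the log2 fold change was small at 0.06 (95% interval -0.08 to 0.20, adjusted p = 0.555, limma). Mdm4 (chr1:132989845-133025366, minus strand), the related inhibitor without strong ligase activity of its own, measured 20.79 and 20.55 in the controls, against 21.50 and 24.07 in Tdrd7 null libraries. Its Tdrd7 null libraries differed from each other more than the first of them differed from the controls. The log2 fold change was 0.13 (95% interval -0.02 to 0.29, adjusted p = 0.218, limma). Neither inhibitor passed the test, and increases of up to 0.20 and 0.29 on the log2 scale remain within their intervals.

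The inhibitors were also set against p53 itself per kilobase of the longest annotated transcript. The ratio of Mdm2 to Trp53 was 1.95 and 1.75 in control libraries, against 2.10 and 2.04 in those of Tdrd7 null lenses. The ratio of Mdm4 to Trp53 was 0.801 and 0.715, against 0.852 and 0.943. Both ratios were higher in each Tdrd7 null library than in either control, whereas the ratio of Mdm2 to Mdm4 overlapped, at 2.43 and 2.45 against 2.47 and 2.17. The order of both ratios follows from the values above, with Trp53 lower and both inhibitors higher in each Tdrd7 null library. It is thus no further result. The ratios share the Trp53 values, and control library 2, with the highest Trp53, had the lowest ratio in both cases.

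Ccng1 (ENSMUSG00000020326, chr11:40748552-40755311, minus strand) encodes cyclin G1, a p53 target that binds protein phosphatase 2A and acts on MDM2. It measured 285.6 and 285.2 scaled reads in control libraries and 333.9 and 328.8 in Tdrd7 null libraries. The control libraries were almost equal, and both Tdrd7 null libraries were clearly above them. The log2 fold change was 0.21 ± 0.051 (SE, n = 2 per group; 95% interval 0.11 to 0.32; adjusted p = 0.0136, limma), on 11678 to 12553 inferred reads per library. When any 1 library was left out the fold change stayed between 0.20 and 0.23, but the call was lost without control library 1 (adjusted p = 0.0879, limma) or control library 2 (adjusted p = 0.0899). It was also lost with libraries rescaled to equal totals (adjusted p = 0.116), without an intensity trend in the prior (adjusted p = 0.0962) and with the GC and length trend removed, where the fold change was 0.04 (adjusted p = 0.712).

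Trp53inp1 (ENSMUSG00000028211, chr4:11156431-11174379, plus strand), whose stress-induced nuclear protein promotes p53 activity and autophagy, measured 5.55 and 6.84 scaled reads in the controls, against 7.74 and 9.21 in Tdrd7 null libraries. The groups did not overlap, but the spread within each was more than the gap between the nearest libraries of the 2 groups. The log2 fold change was 0.40 ± 0.110 (SE, n = 2 per group; 95% interval 0.16 to 0.64; adjusted p = 0.0253, limma), on 230 to 327 inferred reads per library. Without control library 1 it fell to 0.27 (adjusted p = 0.222, limma), and without Tdrd7 null library 2 to 0.29 (adjusted p = 0.136). The call was also lost without an intensity trend (adjusted p = 0.0847) and with the GC and length trend removed (0.21, adjusted p = 0.333).

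Bax (chr7:45461695-45466898, minus strand), the Bcl2-family effector that opens the outer mitochondrial membrane, measured 11.05 and 12.02 scaled reads in the controls, against 11.15 and 12.22 in Tdrd7 null libraries. The groups overlapped, and the log2 fold change was 0.02 (95% interval -0.16 to 0.20, adjusted p = 0.908, limma). Bax shares 192 nt of exonic sequence with Gm45808 on the same strand and its value is uncertain to that extent. Zmat3 (chr3:32334796-32365678, minus strand), a zinc-finger RNA-binding protein that regulates splicing and mRNA stability, measured 13.61 and 13.22 in the controls, against 10.93 and 13.01 in Tdrd7 null libraries. Tdrd7 null library 1 alone was far below the controls. The log2 fold change was -0.16 (95% interval -0.34 to 0.03, adjusted p = 0.230, limma), so the lowest and the highest fold change of the 7 genes both belonged to p53 targets.

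Per kilobase of the longest transcript, the 7 genes spanned a wide range in control lenses. Ccng1 led at 81.3 ± 0.089 scaled reads per kb (SD, n = 2), which placed it at percentile 97.6 of the genes with a length. Bax followed at 10.5 ± 0.62 and Mdm2 at 7.09 ± 0.023. Trp53 was in the middle of all genes, at percentile 54.5, with 3.85 ± 0.28 scaled reads per kb. Mdm4 at 2.91 ± 0.024, Zmat3 at 1.72 ± 0.035 and Trp53inp1 at 1.14 ± 0.17 were lower. No neighbours in this order overlapped among the control libraries. In Tdrd7 null lenses Zmat3, at 1.40 and 1.67 scaled reads per kb, and Trp53inp1, at 1.43 and 1.70, did overlap. A single transcript length per gene was used, so an unannotated or shorter main isoform would change a level per kb but not a fold change. For Mdm4 the length and GC content came from an annotation of chr1:132959484-133030561, which extends beyond the locus given above. Its level per kb, its ratio to Trp53 and its GC class rest on that annotation.

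**Figure D2:**
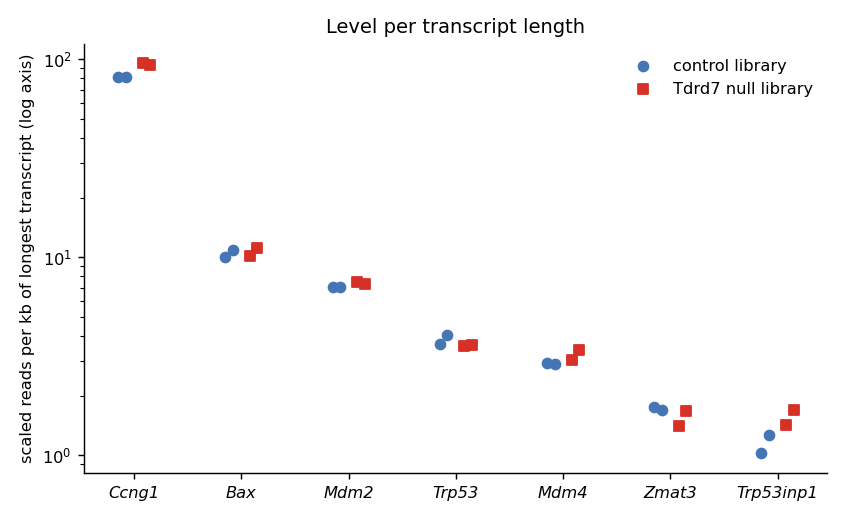
Scaled reads per kb of the longest transcript (y axis, log scale) for the 7 genes, ordered by their control mean, with 1 point per library. Ccng1, at 81.3 in controls, stands well above Bax at 10.5, and Zmat3 and Trp53inp1 overlap in the Tdrd7 null libraries.

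Fold changes in this series moved with the GC content of transcripts, and the 7 genes ranged from 38.8 to 63.5% GC. Genes of 35 to 40% GC, the class of Trp53inp1 (38.8%), had a median log2 fold change of 0.22, and 43.7% of them were called higher. Those of 40 to 45%, the class of Ccng1 (40.8%) and Mdm4 (43.3%), had a median of 0.14, with 22.6% called higher. Both calls among the 7 genes thus fell on the 2 members lowest in GC. At the other end, genes of 60% GC and more, the class of Bax (63.5%), had a median of -0.22, with 36.0% called lower and 0 called higher. Ccng1 lay 0.08 above the median of its class and Trp53inp1 0.18 above, while Bax lay 0.23 above. Mdm4, Mdm2 and Trp53 lay within 0.04 of the medians of their classes, and Zmat3 lay at -0.19 relative to its own.

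**Figure D3:**
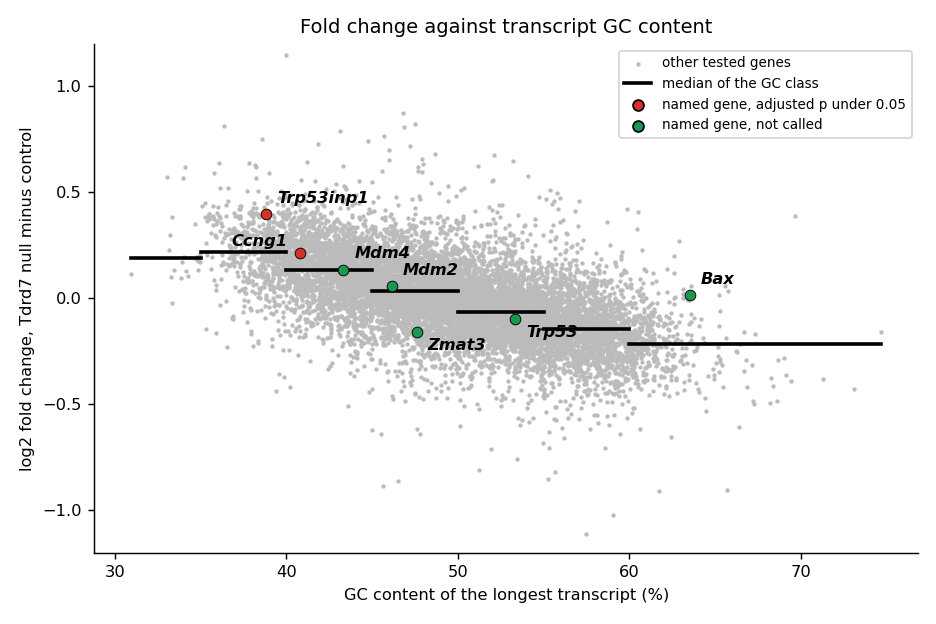
Log2 fold change, Tdrd7 null minus control (y axis), against the GC content of the longest transcript in percent (x axis), with 1 point per tested gene, medians of GC classes as bars and the 7 genes in color. The axis leaves out the 2 genes beyond 1.2. Trp53inp1 and Ccng1 lie in classes with medians of 0.22 and 0.14, and Bax lies above a class median of -0.22.

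With the trend over GC content and transcript length removed from each library, none of the 7 genes was called, beside a background of 3.28% of tested genes called, 1.95% higher and 1.33% lower. The log2 fold change of Ccng1, 0.04, then had a 95% interval of -0.06 to 0.13, and that of Trp53inp1, 0.21, an interval of -0.03 to 0.46. Bax moved from 0.02 to 0.20, with an interval of 0.03 to 0.36, an unadjusted p of 0.0217 and an adjusted p of 0.180. Trp53, Mdm2 and Mdm4 came to lie between -0.02 and 0.04, and Zmat3 stayed at -0.15. At an unadjusted p under 0.05, 1 of the 7 genes passed with the trend removed and 2 passed without, beside 18.7% and 33.1% of all tested genes. Whether the GC trend is technical was not tested.

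**Figure D4:**
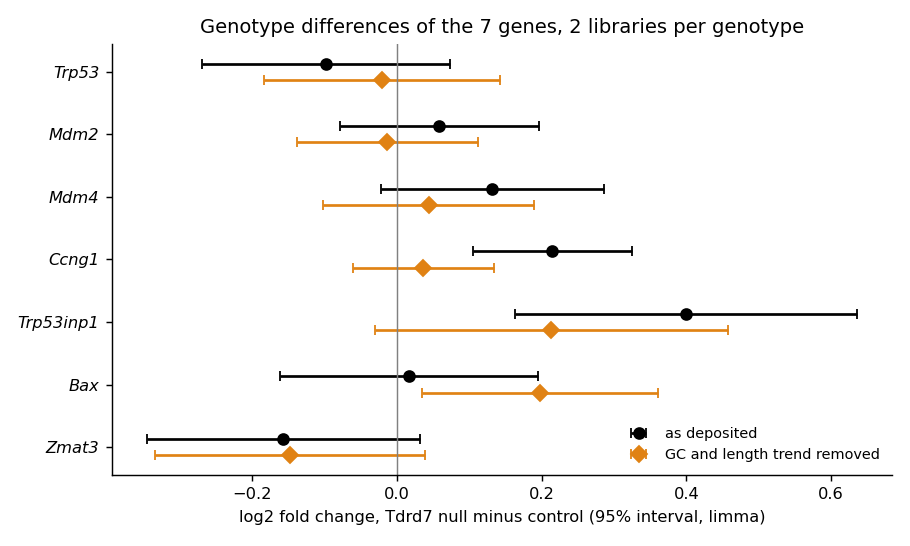
Log2 fold change, Tdrd7 null minus control (x axis), with 95% intervals from limma, for the 7 genes as deposited (circles) and with the GC and length trend removed (diamonds). Ccng1 moves from 0.21 to 0.04 and Trp53inp1 from 0.40 to 0.21, while Bax moves from 0.02 to 0.20.

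The wider pathway was described from lists of other regulators and other targets of p53. Among 47 tested regulators 13 were called, 4 higher and 9 lower, and among 48 tested targets 4 were called, all lower. These were 27.7% and 8.33%, against 18.0% of all tested genes called, 10.1% higher and 7.88% lower. The difference between the lists was not tested. The median log2 fold change was -0.00 for the regulators and 0.00 for the targets, beside -0.01 for all genes. With the GC and length trend removed, 4 of the 47 regulators and 1 of the 48 targets were called, or 8.51% and 2.08% against 3.28% of all genes.

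Of 21 tested regulators of p53 stability, 3 were called higher and 6 lower, beside 10.1% and 7.88% of all tested genes. Npm1, which encodes nucleophosmin, a nucleolar protein that binds MDM2 and ARF, measured 101.9 and 99.2 scaled reads in the controls, against 125.6 and 134.1 in Tdrd7 null libraries (log2 fold change 0.36, adjusted p = 0.00175, limma). Rfwd2, also known as Cop1, a ubiquitin ligase for p53, measured 14.96 and 15.66 against 20.51 and 22.33 (log2 fold change 0.46, adjusted p = 0.00218). Both kept their calls when any 1 library was left out, and both lost them with the GC and length trend removed, at 0.17 and 0.24. Rpl23, a ribosomal protein that inhibits MDM2, rose by 0.32 on the log2 scale (adjusted p = 0.00555), a call that was lost without control library 1 (adjusted p = 0.0816) and with the GC and length trend removed (0.17, adjusted p = 0.0842). The other ribosomal MDM2 inhibitors on the list, named after their values were seen, were not called higher. Rpl11 measured 84.98 and 89.31 scaled reads in the controls, against 80.55 and 58.43 in Tdrd7 null libraries (log2 fold change -0.34, adjusted p = 0.0398). That call was lost without Tdrd7 null library 2 (-0.11, adjusted p = 0.335), control library 1 (adjusted p = 0.135) or control library 2 (adjusted p = 0.219), and with the GC and length trend removed (adjusted p = 0.0647). Rpl5 was not called (0.16, adjusted p = 0.297). Its values were low, at 5.26 and 4.83 scaled reads in the controls, against 6.04 and 5.43 in Tdrd7 null libraries. It shares 953 nt with Fam69a on the opposite strand. Npm1 and these ribosomal protein genes have processed copies in the genome that could take or give reads, so their values are uncertain to that extent.

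Usp2, a deubiquitinase that stabilises MDM2 and MDM4, measured 8.73 and 7.59 scaled reads in the controls, against 5.45 and 4.93 in Tdrd7 null libraries. Both Tdrd7 null values were well below both controls, with a log2 fold change of -0.56 (adjusted p = 0.00351, limma). It was still called with the GC and length trend removed, at -0.47 (adjusted p = 0.0201), but not without control library 1 (adjusted p = 0.0591). It shares 200 nt with Gm49380 on the opposite strand, and the library kit does not mark strand. The other regulator of stability called with the trend removed was Rassf1, a scaffold protein that acts on MDM2, at -0.54 (adjusted p = 0.00878). Rassf1 was named after its values were seen, and as deposited its call was lost without control library 1 or 2. It shares 2496 nt with Gm9917 on the opposite strand, more than its longest transcript of 2375 nt. Without strand marks, reads of Rassf1 and of Gm9917 in that stretch cannot be told apart.

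Of 26 tested kinases and cofactors that activate p53, 1 was called higher and 3 lower, beside 10.1% and 7.88% of all tested genes. Dyrk2, a kinase that phosphorylates p53 in its activation domain, measured 22.65 and 18.66 scaled reads in the controls, against 15.67 and 14.73 in Tdrd7 null libraries (log2 fold change -0.41, adjusted p = 0.0079, limma). Kat2b, the acetyltransferase PCAF, measured 41.92 and 38.93 against 50.57 and 47.84 (log2 fold change 0.28, adjusted p = 0.00992). Both were also called with the GC and length trend removed, at -0.43 and 0.24. Dyrk2 lost its call without control library 1 (adjusted p = 0.102) and Kat2b without control library 2 (adjusted p = 0.103). Dyrk2 shares 328 nt with a transcript on the opposite strand. Ppp1r13b, which encodes the p53 cofactor ASPP1, fell by 0.38 on the log2 scale (adjusted p = 0.0229), and Ankrd11, a p53 coactivator, fell by 0.29 (adjusted p = 0.0333). Ankrd11 shares 1299 nt with Gm45894 on the opposite strand. Ppp1r13b lost its call without control library 1 (adjusted p = 0.212) or Tdrd7 null library 2 (adjusted p = 0.132), Ankrd11 without control library 1 (adjusted p = 0.188), control library 2 (adjusted p = 0.119) or Tdrd7 null library 2 (adjusted p = 0.137), and neither was called with the trend removed.

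**Figure D5:**
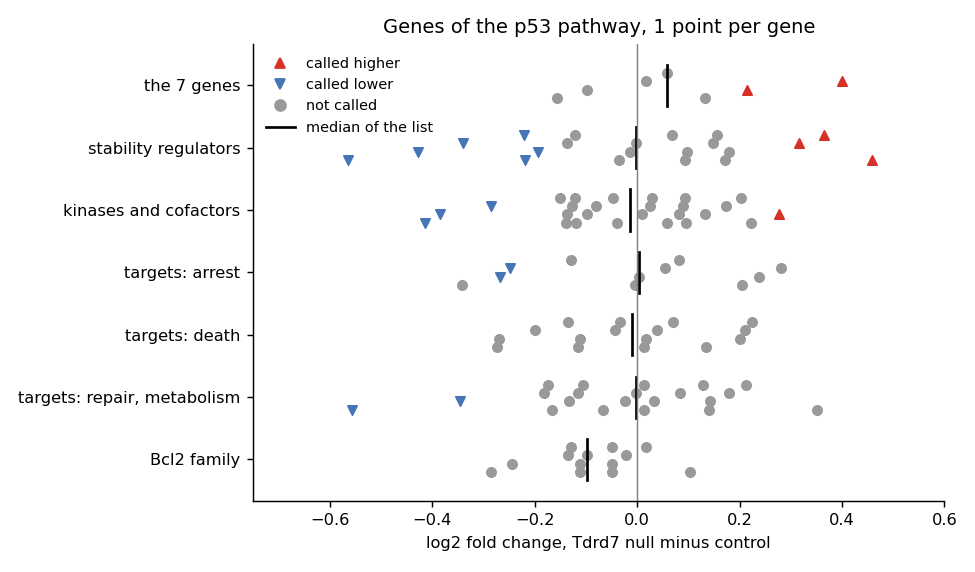
Log2 fold change, Tdrd7 null minus control (x axis), of each tested gene in 7 lists of the p53 pathway (y axis), with triangles for genes called at an adjusted p under 0.05 and bars for list medians. As deposited, 0 of 48 tested targets outside the 7 genes were called higher and 4 were called lower. Of all tested genes, 10.1% were called higher and 7.88% lower.

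Targets of p53 that act in cell cycle arrest gave 0 higher and 2 lower calls among 11 tested, beside 10.1% and 7.88% of all tested genes. Gadd45a, a growth arrest and DNA damage gene, measured 18.00 and 18.50 scaled reads in the controls, against 15.14 and 15.26 in Tdrd7 null libraries (log2 fold change -0.25, adjusted p = 0.0268, limma). It was called with the GC and length trend removed as well, at -0.31 (adjusted p = 0.0257), yet as deposited the call was lost when any 1 library was left out (adjusted p of 0.0554 to 0.158). It shares 337 nt with E230016M11Rik on the opposite strand. Ptp4a3, a phosphatase, fell by 0.27 (adjusted p = 0.0087) and was not called with the trend removed, at -0.05, nor as deposited without control library 1 (adjusted p = 0.0587) or 2 (adjusted p = 0.072). Fbxw7, a subunit of a ubiquitin ligase for cyclin E, and Plk2, a kinase, had fold changes of -0.34 (adjusted p = 0.0502) and 0.28 (adjusted p = 0.158). Cdkn1a, which encodes the p21 inhibitor of cyclin-dependent kinases, has a promoter in the RefSeq table above. It was not among the 11 arrest targets with expression values here, so nothing can be said of its level.

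Among 16 tested targets of p53 that act in cell death, limma called 0, and 3 passed an unadjusted p under 0.05, which 33.1% of all tested genes passed. Ikbip (0.21, adjusted p = 0.0844), Apaf1, the apoptosome scaffold (0.22, adjusted p = 0.124), Trp53i13 (-0.27, adjusted p = 0.129) and Siva1 (-0.20, adjusted p = 0.164) had the smallest p-values. Their fold changes lay on both sides of 0, and Trp53i13 shares 328 nt with Abhd15 on the opposite strand. The 13 tested members of the Bcl2 family, to which Bax belongs, also gave 0 calls in limma, with 1 at an unadjusted p under 0.05, against the same 33.1%. Their median log2 fold change was -0.10. Bid, Bbc3 and Pmaip1 are on this list and on that of the death targets, so the counts are not separate. In 7 of the 13 the groups did not overlap, each with lower values in Tdrd7 null lenses, where 31.3% of all genes showed that order. They include Bcl2l1, which encodes the survival protein BCL-XL (-0.11, adjusted p = 0.286, limma), and Bak1, the effector most like Bax (-0.28, adjusted p = 0.132). Bak1 shares 437 nt with Ggnbp1 on the opposite strand. Bid and Bcl2l13, also among the 7, share 628 nt with each other on opposite strands. With the GC and length trend removed, the family's median was -0.04.

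Targets of p53 in DNA repair and metabolism gave 0 higher and 2 lower calls among 21 tested, beside 10.1% and 7.88% of all tested genes. Sesn2, a stress-induced inhibitor of mTORC1, measured 9.09 and 5.61 scaled reads in the controls, against 3.99 and 5.18 in Tdrd7 null libraries (log2 fold change -0.56, adjusted p = 0.0333, limma). The value of control library 1 was far above the rest, and without it the fold change was -0.25 (adjusted p = 0.343); without Tdrd7 null library 1 the adjusted p was 0.081. Prkab1, a subunit of the AMP-activated kinase, fell by 0.35 (adjusted p = 0.0471), a call lost without control library 1 (adjusted p = 0.172), control library 2 (adjusted p = 0.224) or Tdrd7 null library 2 (adjusted p = 0.144). Rrm2b, the p53-inducible ribonucleotide reductase subunit, and Sesn1 had fold changes of 0.21 (adjusted p = 0.0883, limma) and 0.14 (adjusted p = 0.0918). Rrm2b shares 734 nt with Gm49085 on the opposite strand. With the trend removed, 0 of the 21 were called, beside 3.28% of all tested genes.

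Some markers of other cells moved with genotype, and their part in the results above was not tested. Of the markers listed, 0 of 8 for macrophages, 1 of 7 for erythroid cells and 1 of 10 for retina and pigment epithelium were measured. All 8 measured endothelial markers were not called, and their summed level was 21.8 and 12.3 scaled reads in the controls, against 15.8 and 22.8 for Tdrd7 null. Of 4 measured pericyte markers 2, Pdgfrb and Notch3, were called lower, and the sum was 67.7 and 67.9, against 64.1 and 56.4. The others, Rgs5 and Acta2, had log2 fold changes of 0.35 and 0.06 and were not called. Both measured ciliary body markers, Mfap2 and Mfap4, were called lower. All 11 lens fiber markers were measured, with a summed level of 58861 to 69256 scaled reads per library and 1 call, lower. All 7 lens epithelium markers were measured too, with a sum of 459 to 491 and 1 call in each direction. Of 12 proliferation genes 1, Top2a, was called higher, and the sums overlapped, at 122 and 116 against 116 and 140. With the GC and length trend removed, 0 tested genes of these marker lists were called, beside 3.28% of all tested genes. In that fit 1 fiber marker, Lim2, was not tested for want of a matched transcript.

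The genes whose pattern over the 4 libraries was most like that of a member were found by the distance between log2 values centred on each gene's mean. For Trp53 they were Etfb (0.0173), Fdx1 (0.0185) and Apba3 (0.0199), and for Ccng1 they were Setd3 (0.0110), Narf (0.0128) and Hsp90aa1 (0.0134). Within a distance of 0.1 lay 770 genes for Trp53 and 814 for Ccng1. Patterns like these were therefore common in the table, and with 4 libraries the nearest genes are a description only.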

How the data were processed

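Polyadenylated lens RNA was read from both ends for 75 nt, from libraries that do not mark strand. The submitters' processing notes name mm10 (GRCm38) and Cuffnorm, Cufflinks, TopHat2 2.0.9 and Trimmomatic. How reads were counted and scaled and low genes left out is not stated in these sources. All deposited signal values lie within 0.001 of whole multiples of 1 step per library (0.0237 to 0.0282), so they were read as scaled reads.

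Values were tested with limma 3.58.1 in R 4.3.3 on log2(scaled reads + 1), for genes with a mean of at least 1, with an intensity-trended prior. Transcript length and GC content came from GENCODE M21, matched for 10750 genes, and their trend was removed per library with splines of 5 df each. A simulation of 10696 genes used a dispersion of 0.003. It recovered 46% of the changes of 1.25-fold and 92% of those of 1.5-fold, and false calls made up 6.11%. These rates describe the simulation only. Whether they hold for the deposited values, where 1920 calls became 350 with the GC and length trend removed, was not tested.

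Named genes were the 7 members, up to 4 genes per list with the smallest p, 2 per marker list by level, and 3 nearest patterns. Members and lists were chosen with earlier results of these data known. Replicate numbers are shared between genotypes, but no label pairs them.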

Additional observations from a re-analysis of the deposited data

How the results depend on the processing

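The count of members called (2) became 1 with libraries rescaled to equal totals, 0 without an intensity trend in the prior, 0 with the GC and length trend removed, 0 with that removal and the replicate block, and 0 to 2 when 1 library was left out. Called regulators (13) became 0 without an intensity trend, 4 with the GC and length trend removed, 5 with the replicate block added to that, and 3 to 16 when 1 library was left out. Called targets (4) became 1 with equal totals, 0 without an intensity trend, 1 with the GC and length trend removed, 1 with the block added, and 0 to 4 when 1 library was left out. All genes called (1920) became 990, 16, 350 and 408 under the same alternatives in that order, and 431 to 2196 when 1 library was left out. Same-numbered libraries deviated in opposite directions (r = -0.151 across genes). A replicate block as numbered gave 2117 calls, with 2 members, 13 regulators and 5 targets. A block on crossed numbers, an alternative added once the data had been seen, gave 3036, with 9 targets, 4 of them higher. In these fits the prior df was infinite, with 1 residual df. Their p-values thus rest on the spread over genes of similar level and not on each gene's own. Without Tdrd7 null replicate 1, 1 target was called higher.

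Among 55 named genes and 16 alternatives, 8 genes changed sign at least once, and 0 of these sign changes involved a call. With the GC and length trend removed, with the block or without, Mdm2 went to -0.0129, Rpl5 to -0.0164 and Apba3 to 0.0989. When 1 library was left out, Bax ranged from -0.044 to 0.0783, Crygd from -0.2153 to 0.0994, Pax6 from -0.0204 to 0.0461, Cdh5 from -0.1957 to 0.9036 and Acta2 from -0.2123 to 0.3273. The other pseudocounts, filters, median-of-ratios scaling and robust prior changed no sign. The causes were not tested. Planned count-based fits (edgeR, DESeq2 and TMM scaling) were not run: raw counts could only be inferred, and since the lowest value of each library was 5 to 21 steps, that a step is 1 read could not be checked on the lowest genes. With 2 libraries per genotype, small changes can be missed, above all for Trp53inp1, which had the fewest reads of the 7 genes.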
